A study of Mus musculus with 4 samples.

Results

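Within the TCRβ+ CD8α+ T cells of the mouse colon epithelium, a small set of cells carried transcripts of S100a4, Ly6c2 and S1pr1, genes linked to T cells that recirculate through blood. They were called circulating memory-like, and were chosen on measured counts: at least 1 UMI (unique molecular identifier, 1 captured transcript) of S100a4, a summed count of Ly6c2 and S1pr1 of at least 2, and a summed count of the naive T cell genes Ccr7, Dapl1 and Igfbp4 under 2. These gated cells numbered 138 of 7603 in the Tcf7WT library and 106 of 5785 in the Tcf7KO library, 244 of 13388 TCRβ cells and of 16787 cells in the series. They are compared here with the other cells of their own library, with the naive-like cells of that library (a summed count of Ccr7, Dapl1 and Igfbp4 of 2 or more; 147 cells in Tcf7WT and 98 in Tcf7KO) and between the genotypes.

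The series holds 4 droplet-based 3′ single-cell libraries of intraepithelial lymphocytes, the T cells lodged between the cells of the gut lining, from mouse colon. TCRβ and TCRγδ cells positive for CD8α were sorted separately from mice labelled Tcf7WT and Tcf7KO. All 4 libraries carry the same strain label, E8IcreTcf7fl/fl, a floxed Tcf7 with a Cre recombinase driven by the E8I enhancer of the Cd8 locus, so the genotypes are told apart by the genotype label alone, and the age and number of animals are not given in the sources used here. The rule cannot be applied to the TCRγδ libraries, where Ly6c2, Dapl1 and Igfbp4 are not among the listed genes. With 1 library per genotype and sort there is no replicate, no test was made, and every interval is an exact 95% interval that covers counting error only.

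Memory T cells that recirculate leave tissue along a gradient of sphingosine-1-phosphate, sensed by the receptor that S1pr1 encodes. The transcription factor KLF2 drives S1pr1, and T cells that settle in an epithelium shut this programme down and take up CD103 (Itgae), which holds them to E-cadherin. Most intraepithelial T cells of the gut are of the resident kind, and many carry CD8αα in place of the CD8αβ of conventional killer T cells.

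Promoter sequence is given for the gating genes Ly6c2 and S100a4, for S100a6, the neighbour of S100a4, and for Klf2. The gate selected for Ly6c2 and S100a4, so their joint height in the gated cells is no result. The promoter of the gating gene S1pr1 was not in the sources used here. Each sequence is the 250 bases before a start of the gene in RefSeq (GRCm38.p6), 5′ to 3′ on the gene's own strand. Capitals mark CACCC or its complement GGGTG, the core of the box that Krüppel-like factors bind. Ly6c2 lies on the minus strand (chr15:75111972-75112221), S100a4 (chr3:90603520-90603769), S100a6 (chr3:90612644-90612893) and Klf2 (chr8:72318812-72319061) on the plus strand.
Ly6c2: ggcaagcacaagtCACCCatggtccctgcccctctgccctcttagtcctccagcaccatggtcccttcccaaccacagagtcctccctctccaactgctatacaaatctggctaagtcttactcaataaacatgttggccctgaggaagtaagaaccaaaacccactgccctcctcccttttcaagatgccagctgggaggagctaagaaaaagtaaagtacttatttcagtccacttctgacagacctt
S100a4: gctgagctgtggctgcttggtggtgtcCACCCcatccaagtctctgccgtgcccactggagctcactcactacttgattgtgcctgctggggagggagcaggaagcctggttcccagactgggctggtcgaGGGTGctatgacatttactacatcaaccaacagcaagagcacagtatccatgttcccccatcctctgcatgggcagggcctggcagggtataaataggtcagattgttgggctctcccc
S100a6: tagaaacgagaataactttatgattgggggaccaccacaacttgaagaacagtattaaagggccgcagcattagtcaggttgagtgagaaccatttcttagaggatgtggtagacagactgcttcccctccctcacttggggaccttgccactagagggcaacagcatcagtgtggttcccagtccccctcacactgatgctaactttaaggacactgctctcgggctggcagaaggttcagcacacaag
Klf2: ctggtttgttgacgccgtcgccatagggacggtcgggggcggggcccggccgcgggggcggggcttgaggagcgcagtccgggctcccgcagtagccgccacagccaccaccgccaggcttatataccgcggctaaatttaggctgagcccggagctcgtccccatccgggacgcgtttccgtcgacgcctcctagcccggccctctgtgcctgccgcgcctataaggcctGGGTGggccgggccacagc
The core was found 1 time before Ly6c2 (0 times in the window of a second RefSeq start of that gene, chr15:75111938-75112187), 2 times before S100a4, 0 times before S100a6 and 1 time before Klf2. Of all 32851 mouse promoter windows of this length, 52% hold it on either strand, so its presence does not set these genes apart. CTTTGA or TCAAAG, the core that TCF and LEF factors bind, is in 13.8% of the windows and in none of these 4.

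The genes of the rule are described without a test, since they chose the cells. In CPM (a gene's UMIs scaled to an equal total in each set of cells), S100a4 stood at 1248 in the gated cells and 31.6 in the other cells of Tcf7WT, and at 861 and 22.3 in Tcf7KO. Ly6c2 stood at 1078 against 39.7 and at 629 against 31.7. S1pr1 stood at 353 against 31.7 and at 364 against 31.8. A gated cell held a median of 3 S100a4 UMIs in Tcf7WT (1 to 28) and 2 in Tcf7KO (1 to 23), and a median summed count of Ly6c2 and S1pr1 of 4 in both libraries. Ly6c2 UMIs were found in 114 of 138 and 81 of 106 gated cells and S1pr1 UMIs in 88 and 77. Counts of Ly6c2 (chromosome 15, 75108158 to 75111970, minus strand, GRCm38) are uncertain against its near copy Ly6c1 (75044018 to 75048830): the last 400 bases of their longest transcripts are 98.2% identical, and Ly6c1 itself had 7 and 3 UMIs in the gated cells.

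Cells just inside and just outside the thresholds were set side by side. The 35 Tcf7WT and 27 Tcf7KO gated cells with a summed count of Ly6c2 and S1pr1 of exactly 2 had 1972 and 1277 CPM of Klf2, and the 59 and 44 cells just outside with a sum of 1 had 2311 and 1076. The 44 and 31 gated cells with exactly 1 S100a4 UMI had 736 and 997 CPM of S100a6, and the 177 and 136 cells outside with none had 629 and 607. The limit on naive genes removed few cells, 8 in Tcf7WT and 9 in Tcf7KO.

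Gated cells made up 1.82% of Tcf7WT cells (1.53% to 2.14%) and 1.83% of Tcf7KO cells (1.5% to 2.21%). They were deeper than the rest: median UMIs per cell were 3004.5 against 2424 in the other cells of Tcf7WT and 3629.5 against 2848 in those of Tcf7KO. A rule that asks for a minimum of UMIs is met more often in deep cells. With every cell thinned to 1624 UMIs, which left out 759 and 489 shallower cells (2 and 3 of them gated), the median share over 20 draws was 1.10% in Tcf7WT (1.01% to 1.20%) and 0.812% in Tcf7KO (0.642% to 1.02%). These ranges cover the draws and not counting error. The shares were near equal at native depth, and the Tcf7KO median was lower at equal depth, a difference that was not tested. Summed UMIs were 464005 and 483194 in the gated cells and 19825955 and 17888986 in the other cells of Tcf7WT and Tcf7KO. Over all cells, the TCRβ libraries share 10 barcodes, and each other pair of libraries shares 1 to 7.

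Klf2 was the only one of the 4 proposed marker genes that the rule did not use. It stood at 2469.8 CPM (2329 to 2617) in the gated cells of Tcf7WT against 630 in the other cells, and at 1635.0 (1523 to 1753) against 427 in Tcf7KO, log2 ratios of 1.97 (1.88 to 2.06) and 1.94 (1.83 to 2.04). UMIs of it lay in 130 of 138 and 97 of 106 gated cells. After thinning, 83.1% and 78.6% of gated cells kept one, against 28.0% and 22.7% of the other cells. The 177 and 136 cells that missed the rule for lack of an S100a4 UMI held more than the gated cells, 3142 and 2380 CPM. The level of Klf2 in the naive-like cells was higher still, 4744 and 3759 CPM.

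Across genes, a gene was called apart at a 2-fold ratio of CPM with at least 50 UMIs over both sets and 50 CPM in the higher one. Outside the genes of the rule, 126 of 4253 measured genes were at least 2-fold higher in the gated than in the other cells of Tcf7WT (2.96%) and 133 lower (3.13%). In Tcf7KO these were 113 (2.7%) and 114 (2.72%) of 4190. Of the 3999 genes measured in both libraries, 82 were higher in both (of 102 in Tcf7WT and 98 in Tcf7KO), 62 were lower in both (of 125 and 103), and 0 were apart in opposite directions. Leaving out each cell with 5 or more UMIs of mitosis genes, or the 5% of cells with the highest doublet scores, kept the counts of higher and lower genes in each library within 1.5 times. Thinning before gating left 79 and 36 gated cells, in which 50 CPM rests on fewer UMIs. The counts were then 243 higher and 374 lower in Tcf7WT and 556 and 557 in Tcf7KO. Without thinning and with no CPM minimum they were 451 and 1463 and 504 and 1118.

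**Figure D1:**
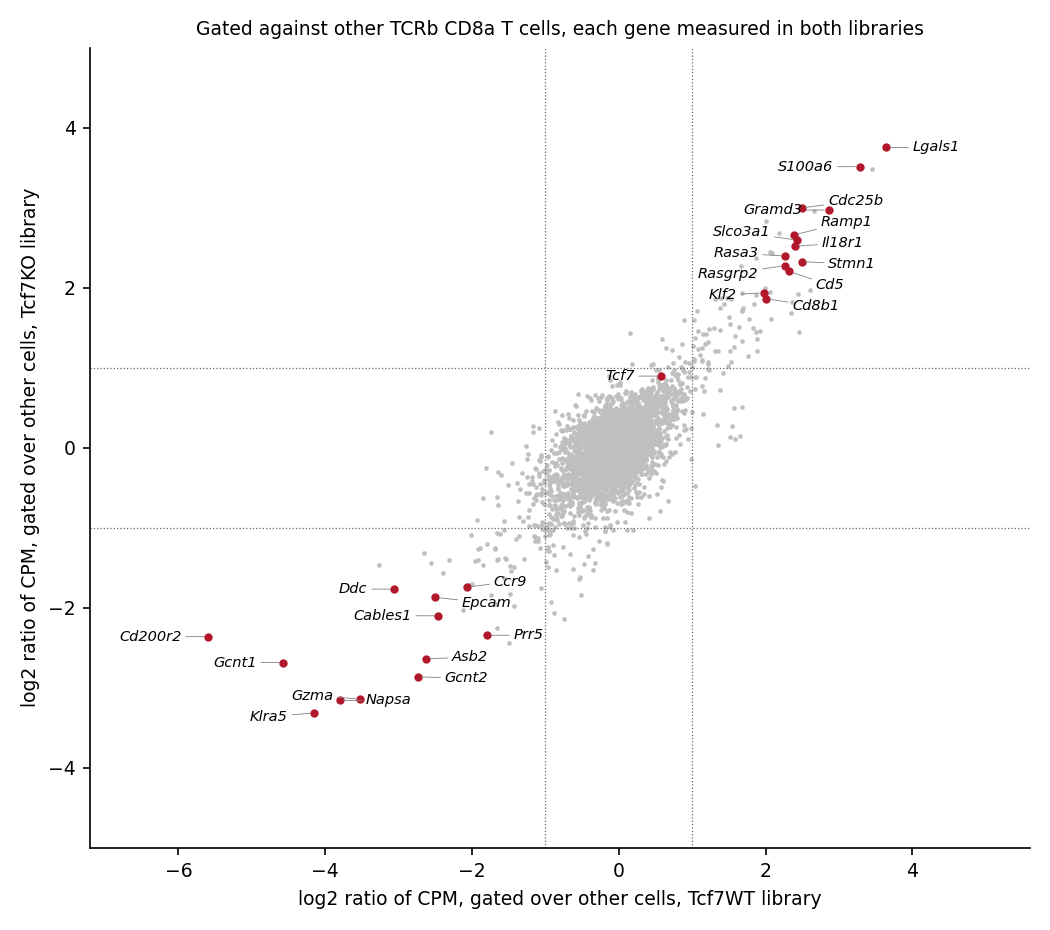
Log2 ratio of CPM of gated over other cells in the Tcf7WT library (horizontal) and the Tcf7KO library (vertical), each grey point a gene measured in both libraries, red points the genes labelled, dotted lines at a 2-fold ratio. Apart from Klf2, Cd8b1 and Tcf7, the labelled genes were chosen for the same direction in both libraries, so their shared direction is no result. S100a6 and Lgals1 lie at the upper right and Klra5 and Gzma at the lower left.

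Both genes furthest above the other cells, Lgals1 and S100a6, were on the list of S100, annexin and cytoskeletal genes. Lgals1, which encodes galectin-1, stood at 677 CPM against 54.2 in Tcf7WT and 445 against 33.0 in Tcf7KO (log2 3.64 and 3.75). S100a6, a calcium-binding protein gene next to S100a4 on chromosome 3 (90612882 to 90624181), stood at 1517 against 156 and 1364 against 119 (log2 3.28 and 3.51). Both genes were thus more than 9 times as abundant in either library. In Tcf7WT this was not particular to the gate. There, the 137 cells outside with S100a4 but no Ly6c2 or S1pr1 UMI, and a naive sum under 2, had 1533 CPM of S100a6 and 531 of Lgals1. In Tcf7KO, the 87 such cells had 622 and 310. Of the 19 listed S100, annexin and cytoskeletal genes, 16 were measured, and 10 in Tcf7WT and 8 in Tcf7KO were at least 2-fold higher, with none lower. The median log2 ratio of the list was 1.22 and 1.03, against -0.04 and 0.00 over all measured genes. Of all measured genes, 2.96% and 2.7% were at least 2-fold higher. Anxa2 (annexin A2) stood at 603 against 152 and 459 against 122, Vim (vimentin, an intermediate filament) at 1474 against 595 and 1254 against 540, and Emp3 at 513 against 140 and 397 against 146. S100a10 and S100a11 were not apart, at 1328 against 990 and 425 against 446 CPM in Tcf7WT.

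Most measured genes of the egress and homing list were high. All gene lists were chosen with earlier results of these data known, so counts from them describe and do not test. Il18r1 and Rasa3 of this list also rank among the 12 genes highest against the other cells. Of 19 listed and 14 measured, 10 were at least 2-fold higher in each library and none lower. The median log2 ratio was 1.34 in Tcf7WT and 1.49 in Tcf7KO. Over all measured genes, 2.96% and 2.7% were higher. Il18r1, a chain of the interleukin-18 receptor, stood at 116 CPM against 22.0 and 103 against 18.1. Cxcr4, the receptor for CXCL12, stood at 90.5 against 24.8 and 178 against 34.3. Integrin genes were among them as well: Itgb1 stood at 207 against 83.9 and 238 against 84.6, and Itgal, which encodes the α chain of LFA-1, at 155 against 66.0 and 137 against 48.9. Genes of Rap and Ras control stood high too, Rasgrp2, which activates Rap1, at 289 against 60.2 and 277 against 57.2, and Rasa3, which restrains Ras and Rap1, at 261 against 54.2 and 209 against 39.7. The remaining Cxcr3, Selplg, Itgb2 and Arhgap45 were measured and less than 2-fold apart in each library.

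The other leading genes were mixed in function. Gramd3 stood at 196 CPM against 27.0 in Tcf7WT and 244 against 31.1 in Tcf7KO. Ramp1, a partner chain of the receptor for the neuropeptide CGRP, stood at 106 against 20.2 and 99.3 against 15.7. Slco3a1, an organic anion transporter gene, stood at 88.4 against 16.4 and 82.8 against 13.7. Cdc25b, a phosphatase of mitotic entry, stood at 60.3 against 10.7 and 84.9 against 10.6. Stmn1, whose product destabilises microtubules, stood at 181 against 32.2 and 205 against 40.9, but its UMIs lay in only 13 and 17 gated cells, up to 26 and 36 of them in 1 cell, and its log2 ratio in Tcf7WT fell from 2.49 to 0.82 when cells were thinned before gating.

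A few gated cells carried most mitosis UMIs. Of the gated cells, 4 of 138 in Tcf7WT (2.90%, 0.795% to 7.26%) and 7 of 106 in Tcf7KO (6.6%, 2.70% to 13.1%) held 5 or more UMIs of the 11 mitosis genes, against 0.723% and 0.845% of the other cells. These cells carried 261 of the 302 and 161 of the 206 mitosis UMIs of the gated cells. Of 18 cell cycle genes, 8 of 11 measured were at least 2-fold higher in Tcf7WT and 5 of 8 in Tcf7KO, with none lower. The share of higher genes over all measured genes was 2.96% and 2.7%. Mki67 stood at 77.6 CPM against 18.6 and 103 against 26.8, with UMIs in 7 and 11 gated cells. Without the cells holding mitosis UMIs, the ratio of Top2a fell under 2-fold in both libraries (log2 0.81 and 0.30, from 2.45 and 1.44). The direction of Mki67 in Tcf7WT turned to a log2 ratio of -0.56 when cells were thinned before gating, which left 79 gated cells and few UMIs. That of Top2a in Tcf7KO turned to -0.35 with cells limited to 500 to 3500 genes.

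Part of the naive and central memory list stood above the other cells. Of 17 listed and 13 measured, 6 in Tcf7WT and 5 in Tcf7KO were at least 2-fold higher than in the other cells and none lower. Over all measured genes, 2.96% and 2.7% were higher and 3.13% and 2.72% lower. Ramp1 of this list is also among the 12 genes ranked highest against the other cells. Il7r, the α chain of the interleukin-7 receptor, stood at 181 CPM against 43.0 and 132 against 43.4. Lef1, a transcription factor related to TCF-1, stood at 142 against 44.3 and 176 against 46.1. Tcf7 itself was 1.49-fold and 1.86-fold higher, at 218 against 146 and 195 against 105. Genes of T cell costimulation and restraint went the same way: Cd28 stood at 319 against 87.1 and 323 against 85.6, and Cd5, which dampens receptor signals, at 84.1 against 16.8 and 57.9 against 12.6. Of 19 T cell receptor signalling genes, 18 were measured, 5 in Tcf7WT and 6 in Tcf7KO were at least 2-fold higher, and Cd3g alone was lower, at 1496 against 3005 and 1532 against 3132.

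Several effector and effector memory genes had few UMIs, though Cx3cr1 and Ccr2 stood above the other cells in both libraries. Klrg1, a marker of short-lived effector cells, had 0 UMIs in the gated cells of Tcf7WT, which allows up to 7.95 CPM, and is not listed in Tcf7KO. Cx3cr1, the fractalkine receptor of effector memory cells, had 7 and 11 UMIs (15.1 CPM against 0.958 and 22.8 against 1.29), and Ccr2 had 8 and 9 (17.2 against 1.11 and 18.6 against 1.51). Eomes had 6 and 5 UMIs, Gzmk 9 and 5, and Zeb2 1 and 0. Of the 16 effector memory transcription factor and receptor genes, 10 were measured in Tcf7WT and 9 in Tcf7KO. Klrk1, the activating receptor NKG2D, was the only one at least 2-fold higher, at 151 against 71.2 and 124 against 52.5. Over all measured genes, 2.96% and 2.7% were higher. Runx3 and Id2, transcription factors of killer and resident T cells, were less than 2-fold apart, Runx3 at 864 against 1108 and 995 against 1233.

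The genes furthest below the other cells were mixed in function. Klra5, which encodes the Ly49E receptor, stood at 15.1 CPM against 267 in Tcf7WT and 29.0 against 288 in Tcf7KO (log2 -4.15 and -3.31). Ccr9, the gut homing receptor for CCL25, stood at 23.7 against 99.4 and 33.1 against 111. Epcam stood at 32.3 against 183 and 51.7 against 189. The 15 epithelial marker genes together had 31 and 35 UMIs in the gated cells, 15 and 25 of them of Epcam, and whether epithelial RNA in the other cells has a part in its difference was not tested. Napsa had 2 and 3 UMIs (4.31 CPM against 60.3 and 6.21 against 55.4), with log2 ratios of -3.81 (-6.85 to -1.95) and -3.16 (-5.44 to -1.61). The glycosyltransferase gene Gcnt2 stood at 15.1 against 101 and 24.8 against 181, Asb2 at 30.2 against 187 and 24.8 against 154, Cables1 at 23.7 against 130 and 37.3 against 160, and Ddc, dopa decarboxylase, at 10.8 against 90.1 and 26.9 against 91.5.

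Most of the residency list stood lower, with 4 of 17 measured genes above a log2 ratio of 0 in each library. Of 20 listed and 17 measured genes, 5 in Tcf7WT and 6 in Tcf7KO were at least 2-fold lower and 2 and 1 higher. The medians were -0.66 and -0.68. Over all measured genes, 3.13% and 2.72% were lower and 2.96% and 2.7% higher. Itgae stood at 185 CPM against 390 and 192 against 460, with a log2 ratio in Tcf7WT of -1.07 that was -0.75 when a summed count of 1 was enough, and Rgs1 at 1675 against 3088 and 1689 against 4264. Cd69, which blocks S1PR1 at the cell surface and marks resident cells, was not lower: it stood at 625 against 409 and 548 against 474. Nr4a1, an early gene of receptor stimulation, was the only one at least 2-fold higher in both libraries, at 325 against 149 and 344 against 162. The gated cells thus held less of the epithelial retention integrin and no less Cd69 than the cells around them.

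Innate-like receptor and adaptor genes were mostly lower. Of 18 listed, 14 were measured in Tcf7WT and 13 in Tcf7KO, and 6 and 7 were at least 2-fold lower. Lower genes made up 3.13% and 2.72% of all measured genes. Tyrobp, the signalling adaptor DAP12, stood at 205 CPM against 817 and 306 against 994, and Fcer1g, a related adaptor, at 821 against 1831 and 948 against 2039. Cd8a was below the other cells at 638 against 1364 and 627 against 1403. Klra9 and Klra3 were the only ones at least 2-fold higher, in Tcf7WT alone, where Klra9 stood at 73.3 against 32.0 and Klra3 at 69.0 against 31.2. Ly49 receptor genes are near copies of each other, so single members of that family are uncertain. Cd160, a receptor of resident cells, stood at 466 against 1032 and 503 against 778 CPM (log2 -1.15 and -0.63).

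Granzymes were low. Gzma stood at 147 CPM against 1691 in Tcf7WT and 519 against 4582 in Tcf7KO (log2 -3.53 and -3.14), and its 68 and 251 UMIs came from 6 and 23 gated cells, with 32 and 138 in 1 cell. Gzmb stood at 315 against 891 and 478 against 2597. Thinned, 3.68% and 12.6% of gated cells held a Gzma UMI, against 9.32% and 29.1% of the other cells and 2.90% and 7.78% of the naive-like cells. The counting intervals of the gated and naive-like shares overlapped in each library. The summed level of Gzma was higher in the gated than in the naive-like cells of Tcf7WT, at 147 against 52.2 CPM. In Tcf7KO it was lower, by less than 2-fold. Whether free RNA has a part in these shares was not tested. Of the 20 cytotoxic and effector genes, 15 were measured, and 4 in Tcf7WT and 6 in Tcf7KO were at least 2-fold lower. Lower genes made up 3.13% and 2.72% of all measured genes. Ifng in Tcf7WT was the only listed gene at least 2-fold higher, at 194 against 60.8. Xcl1, a chemokine that calls dendritic cells, stood at 517 against 1669 and 745 against 1781.

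**Figure D2:**
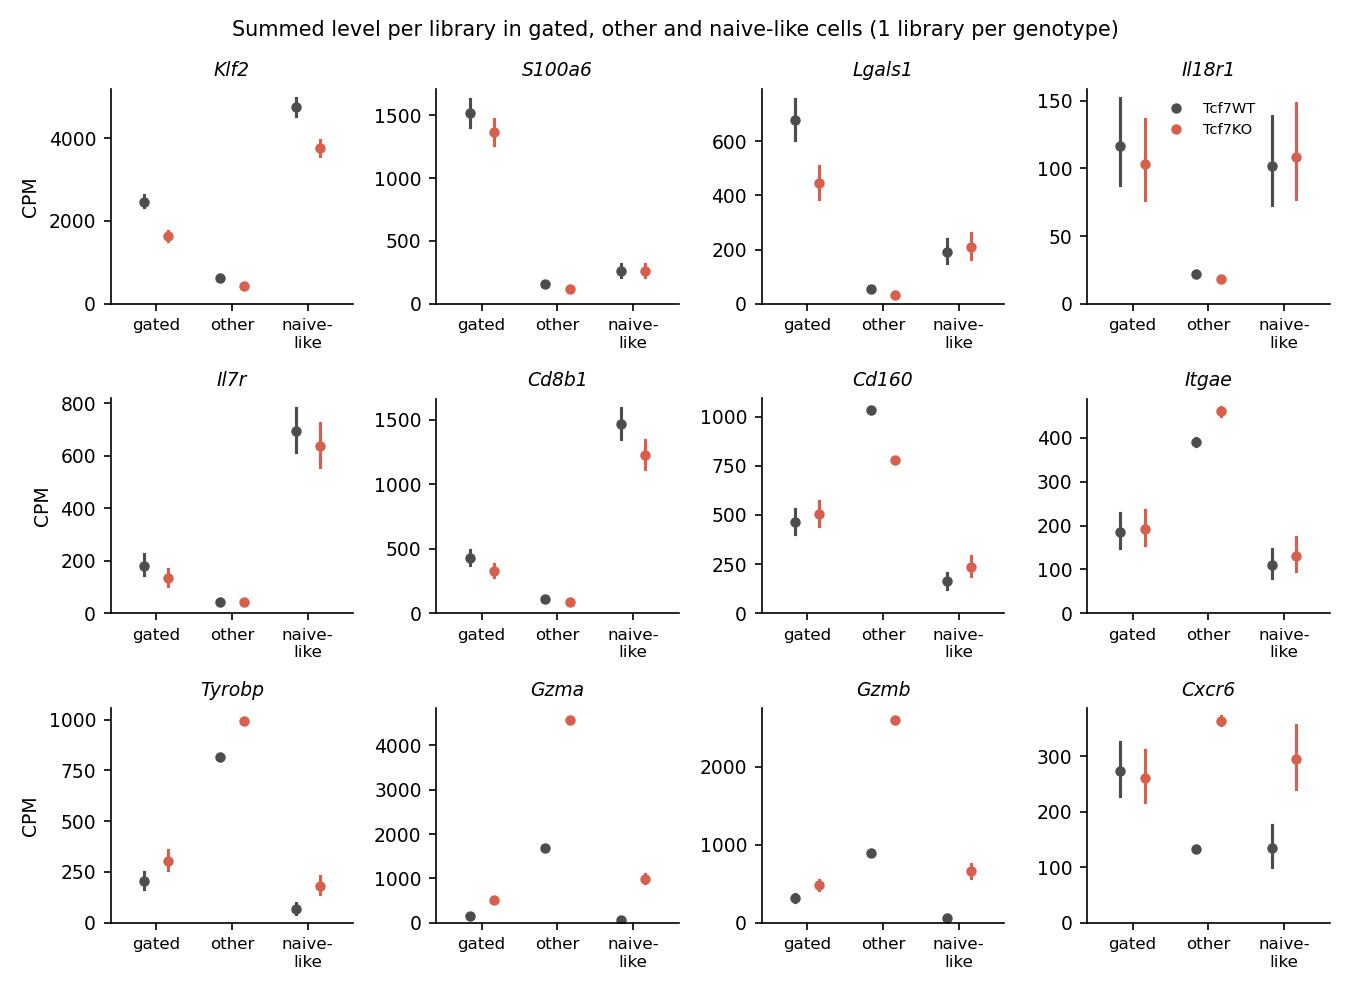
Summed CPM of 12 genes in the gated, other and naive-like cells of the Tcf7WT library (grey) and the Tcf7KO library (red), with 1 library per genotype, points the level and bars the exact 95% counting interval. Klf2, Il7r and Cd8b1 fall between the other and the naive-like cells, and S100a6 and Lgals1 are highest in the gated cells.

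In 4 more lists few members were apart. Each non-zero count was still a larger share than the 2.7% to 3.13% over all genes, and rested on few genes. Of the 20 immediate-early and stress genes, 17 were measured and 2 were at least 2-fold higher in each library with none lower, and the medians were -0.28 and -0.33. The GIMAP and survival list had 14 of 15 measured, with 2 higher in Tcf7WT and 1 higher and 1 lower in Tcf7KO. Cytokine receptor genes had 11 of 18 measured and 3 higher in each library, with medians of 0.14 and -0.03. Inhibitory receptor genes had 1 lower of 7 measured in Tcf7WT, and 1 higher and 2 lower of 9 in Tcf7KO. Pdcd1, which encodes PD-1, was the higher one, at 106 CPM against 27.7 in Tcf7KO, and in Tcf7WT it stood at 43.1 against 12, below the minimum for a call.

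Markers of other cells differed in amount between types. Cd4 had 0 UMIs in the gated cells of both libraries, which allows up to 7.95 and 7.63 CPM. The T cell receptor gene Trbc2 was as abundant as in the other cells, at 1976 against 1932 and 1931 against 1831. Of 16 monocyte and macrophage genes, 5 are listed and had 3 UMIs in all in each library, and of the 7 genes for MAIT and NKT cells 5 and 3 are listed, with 18 and 19 UMIs. The B and plasma cell list had 178 and 146 UMIs, 151 and 112 of them of Ighm, which stood at 325 against 279 and 232 against 286. Cd79b, the other measured member, stood at 58.2 against 35.3 and 70.4 against 30.1, at least 2-fold higher in Tcf7KO alone. Tcrg-C1, a TCRγ constant gene, stood at 38.8 against 79.9 and 37.3 against 72.8. The 9 NK and innate lymphoid genes had 170 and 165 UMIs and the 7 CD4 T cell genes 402 and 456. The members measured were Gata3, Kit and Klrb1c of the former, and Ctla4 and Ikzf2 of the latter. Leaving out each cell with 2 or more UMIs of epithelial, myeloid or B cell markers kept 90 of 138 and 66 of 106 gated cells. Of all cells, 4742 of 7603 and 3165 of 5785 were kept. This filter put 23 of 125 named ratios outside their counting intervals. It turned the direction of none of the ratios of at least 2-fold.

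Cd8b1, whose product pairs with CD8α on conventional killer T cells, divided the gated cells. It stood at 429 CPM against 107 in the other cells of Tcf7WT and 329 against 90.5 in Tcf7KO, and at 1468 and 1228 in the naive-like cells. A UMI of it was found in 50 of 138 gated cells (36.2%, 28.2% to 44.8%) and 29 of 106 (27.4%, 19.1% to 36.9%), against 9.77% and 10.7% of the other cells and 85.7% and 79.6% of the naive-like cells. In the TCRγδ cells the share was 1.11% in Tcf7WT and 0.199% in Tcf7KO, at median depths of 3188 and 4366 UMIs. These are separate libraries, so their shares do not measure the background from free RNA in the TCRβ libraries. Thinned, the gated shares were 23.5% and 22.3%. A Cd8b1 UMI was thus not detected in most gated cells at this depth, which does not count the cells that lack the transcript. Conventional circulating memory CD8 T cells are of the CD8αβ kind, so this gene leaves the label unsettled for the cells without a UMI.

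The split by Cd8b1 was chosen after values were seen, and median depths on its sides were 2961.5 and 3031 UMIs in Tcf7WT and 3629 and 3755 in Tcf7KO. Of 3937 genes with at least 20 UMIs in each library, 18 were at least 2-fold higher in both libraries in the gated cells with a Cd8b1 UMI (0.457%) and 22 lower (0.559%). Itgb1, the β1 integrin of effector and memory cells, stood at 389 CPM with and 99.3 without Cd8b1 in Tcf7WT, and at 508 and 137 in Tcf7KO. Ifng stood at 331 and 113 and at 212 and 19.9. Gzmb stood at 541 and 182 and at 872 and 330. Gpr183, an oxysterol receptor of migrating lymphocytes, stood at 215 and 41.1 and at 159 and 56.9, and Cxcr3 at 302 and 137 and at 220 and 82.5. Cells without the UMI stood higher for Hes1, a target of Notch, at 137 against 34.9 and 179 against 45.5, for Ramp1 at 151 against 29.1 and 122 against 37.9, and for Tsc22d1 at 219 against 87.2 and 279 against 98.6. Sox4 had 3 and 2 UMIs in the cells with Cd8b1, log2 ratios of -2.51 (-4.87 to -0.82) and -2.98 (-6.07 to -1.04).

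With cells matched on Cd8b1, the Klf2 ratio was smaller among cells with a UMI of it than among those without. Among cells with a Cd8b1 UMI, Klf2 stood at 1918 CPM in gated and 1876 in other cells of Tcf7WT and at 1471 and 1121 in Tcf7KO (log2 0.03 and 0.39). Among cells without one it stood at 2795 against 487 and at 1696 against 336 (log2 2.52 and 2.34). S100a6 was high on both sides, at log2 2.47 and 2.62 with and 3.12 and 3.69 without. The 729 and 609 other cells with a Cd8b1 UMI include 126 and 78 naive-like cells, which hold much Klf2. The ratio without those cells was not computed, so the small Klf2 ratio on this side is not one against non-naive cells.

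**Figure D3:**
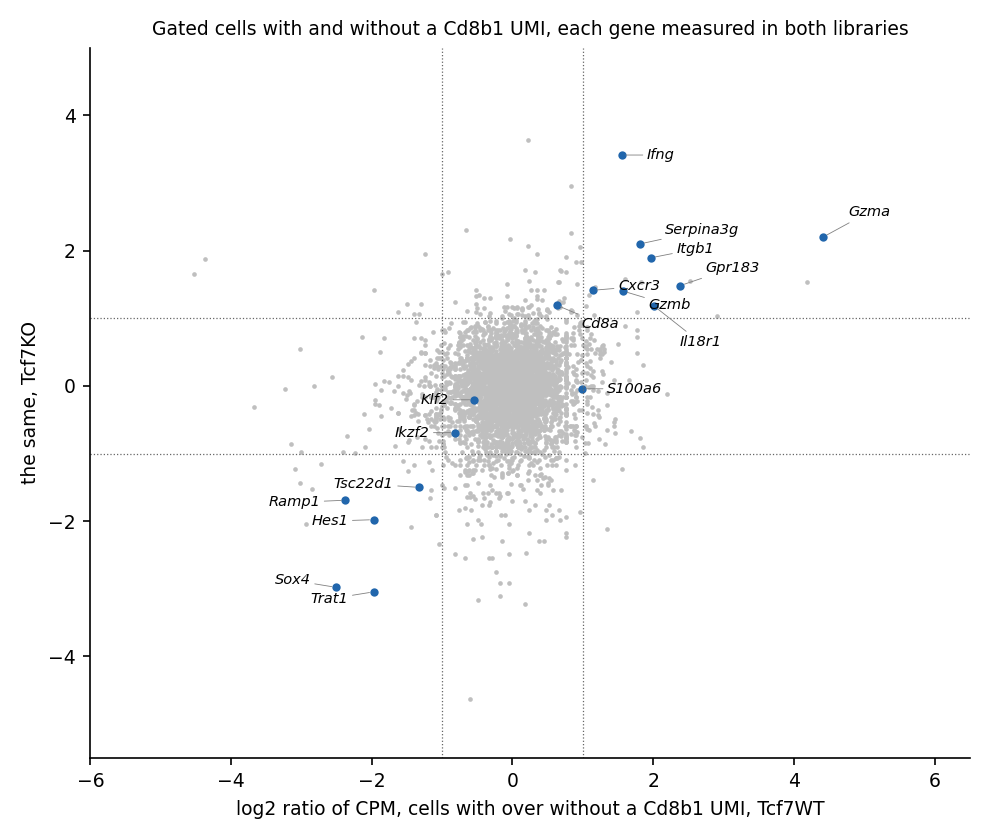
Log2 ratio of CPM between gated cells with and without a Cd8b1 UMI in Tcf7WT (horizontal) and Tcf7KO (vertical), each grey point a gene with at least 20 UMIs in each library, blue points the genes labelled, dotted lines at a 2-fold ratio. Itgb1, Gzmb, Ifng and Gpr183 lie at the upper right, and Hes1, Ramp1, Sox4 and Tsc22d1 at the lower left.

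Both ways into the gate were also compared. Of the gated cells, 50 in Tcf7WT and 29 in Tcf7KO held Ly6c2 without S1pr1, 24 and 25 held S1pr1 without Ly6c2, and 64 and 52 held both. Klf2 stood at 2786 and 2046 CPM in the Ly6c2 cells and at 2040 and 1556 in the S1pr1 cells. Of 2093 genes, 9 were at least 2-fold higher in the Ly6c2 cells in both libraries (0.43%) and 13 in the S1pr1 cells (0.621%). Klrk1 stood at 278 against 13 and 190 against 73.4, and Ncf4, a subunit of the phagocyte oxidase, at 220 against 52.0 and 163 against 58.7. Stmn1 stood higher in the S1pr1 cells, at 299 against 64.6 and 374 against 45.3. The histone gene Hist1h2an did so too, at 805 against 45.3 and 631 against 109. The receptor gene Kit stood higher there as well, at 156 against 64.6 and at 228 against 45.3. Stmn1 UMIs lay in few gated cells, as given above. Whether a few cells carry its difference and that of Hist1h2an was not tested. The S1pr1 cells were deeper, with median UMIs of 3323.5 against 2727.5 in Tcf7WT and 3995 against 3315 in Tcf7KO.

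Against the naive-like cells, the gated cells stood apart in other genes. In Tcf7WT 139 of 3283 measured genes were at least 2-fold higher (4.23%) and 71 lower (2.16%), and in Tcf7KO 99 (3.03%) and 43 (1.32%) of 3263. S100a6 stood at 1517 CPM against 259 and 1364 against 262, Anxa2 at 603 against 117 and 459 against 97.5, and Lgals3 (galectin-3) at 287 against 34.8 and 277 against 61.3. Klra6, an Ly49 family gene, stood at 168 against 17.4 and 143 against 33.4. Ddit4, an inhibitor of mTORC1 signalling, stood at 123 against 37.3 and 143 against 44.5. Innate-like genes, low against the other cells, were high in this comparison: 6 of 8 measured in Tcf7WT and 6 of 10 in Tcf7KO were at least 2-fold higher, Fcer1g at 821 against 206 and 948 against 432. Of the residency genes, 6 of 14 in Tcf7WT and 2 of 14 in Tcf7KO were higher and 0 and 1 lower.

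Of the listed naive and central memory genes, 6 of 14 measured in Tcf7WT and 3 of 13 in Tcf7KO were at least 2-fold below the naive-like cells, and Id3 in Tcf7WT was the only one at least 2-fold higher, at 461 CPM against 224. Il7r stood at 181 CPM against 694 and 132 against 638, and Satb1, a chromatin organiser of T cells, at 293 against 679 and 298 against 601. Cmah, the enzyme that makes N-glycolylneuraminic acid, stood at 34.5 against 251 and 20.7 against 136, and Rflnb at 45.3 against 231 and 29.0 against 131. Klf2 was lower as well, with log2 ratios of -0.94 (-1.05 to -0.84) and -1.20 (-1.33 to -1.07). Granzymes differed by library: Gzmb stood at 315 against 54.7 in Tcf7WT and 478 against 657 in Tcf7KO.

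Between the genotypes, the targeted gene came first. Tcf7 stood at 195 CPM in the gated cells of Tcf7KO and 218 in those of Tcf7WT, a log2 ratio of -0.16 (-0.58 to 0.26), with UMIs in 63 of 106 and 66 of 138 cells. In the other cells it stood at 105 and 146, a log2 ratio of -0.48 (-0.57 to -0.40). The tags come from the 3′ ends of transcripts, and whether the counted part lies outside the deleted part is not given in the sources used here, so this does not check the labels. Any genotype difference is that between 2 libraries, where genotype and library cannot be told apart.

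Few genes were apart between the genotypes in the gated cells. Of 3660 measured genes, 31 were at least 2-fold higher in Tcf7KO (0.847%) and 22 lower (0.601%), and with DESeq2 scaling 49 and 17. In the other cells, with far more UMIs, these were 12 (0.296%) and 2 (0.0494%) of 4049. When no S100a4 UMI was required, 16 of the 20 named genes were under 2-fold, and 11 of 20 when a summed count of Ly6c2 and S1pr1 of 1 was enough. Over all alternatives that gave a value, 19 of the 20 were under 2-fold in at least 1, and Pdcd1 in none. No gene list had more than 2 members apart in a direction. In the effector memory list Cd44 and Tbx21 (T-bet, a transcription factor of type 1 effector cells) were lower, Cd44 at 37.3 against 81.9 CPM and Tbx21 at 51.7 against 106 (log2 -1.03, -1.79 to -0.31, and -0.97 with DESeq2 scaling).

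Pdcd1 was higher in Tcf7KO in gated and other cells alike. It stood at 106 CPM against 43.1 in the gated cells (log2 1.29, 0.52 to 2.12), in 31 of 106 and 16 of 138 cells, and at 27.7 against 12 in the other cells (log2 1.21, 0.98 to 1.44). Over the alternatives its log2 ratio in gated cells ran from 1.0 to 1.48. Gzma stood at 519 against 147 (log2 1.83, 1.43 to 2.23) and at 4582 against 1691 in the other cells (log2 1.44). In the gated cells this rests on few cells, and the ratio was -1.01 with a summed count of Ly6c2 and S1pr1 of at least 3 and 0.78 without the cells holding mitosis UMIs. Eea1, an early endosome tether, was apart in the gated cells, at 84.9 against 23.7 (log2 1.84, 0.85 to 2.95), with a log2 ratio of -0.09 in the other cells, and its ratio in gated cells was 0.78 when no S100a4 UMI was required. The difference between gated and other cells was not tested. Samsn1, an adaptor of lymphocytes, stood at 137 against 49.6, Dgat1, which makes triglycerides, at 74.5 against 30.2, Klrb1a at 153 against 64.7, and Mtrex, an RNA helicase of the nuclear exosome, at 108 against 38.8.

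Genes lower in Tcf7KO were led by Ifng. It stood at 72.4 CPM against 194 (log2 -1.42, -2.03 to -0.84), with UMIs in 12 of 106 and 34 of 138 cells, and at 50.9 against 60.8 in the other cells (log2 -0.26). Its ratio moved to -0.24 when no S100a4 UMI was required. Hist1h2ae stood at 35.2 against 88.4, with 28 of its 41 UMIs in Tcf7WT from 1 cell, and its ratio was 0.79 with no naive gene UMI allowed. Rcn3 stood at 51.7 against 129 and Cflar, which blocks death receptor signals, at 47.6 against 106.

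Some genes of the genotype contrast in the other cells were not matched in the gated cells. Gzmb stood at 2597 CPM in Tcf7KO against 891 in Tcf7WT in the other cells (log2 1.54), and at 478 against 315 in the gated cells (log2 0.60, 0.30 to 0.91). Cxcr6, a receptor of resident T cells, stood at 364 against 133 (log2 1.46) and at 261 against 274 (log2 -0.07, -0.44 to 0.30), a ratio of 0.39 when no S100a4 UMI was required. Klf2 and Lgals1 stood lower in Tcf7KO in gated and other cells, Klf2 by log2 ratios of -0.60 (-0.73 to -0.46) in gated and -0.56 (-0.60 to -0.52) in other cells, and Lgals1 by -0.60 (-0.86 to -0.35) and -0.72 (-0.86 to -0.57). After thinning, the ratio of Klf2 in gated cells was -0.18, and whether the gated and other cells differ was not tested.

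**Figure D4:**
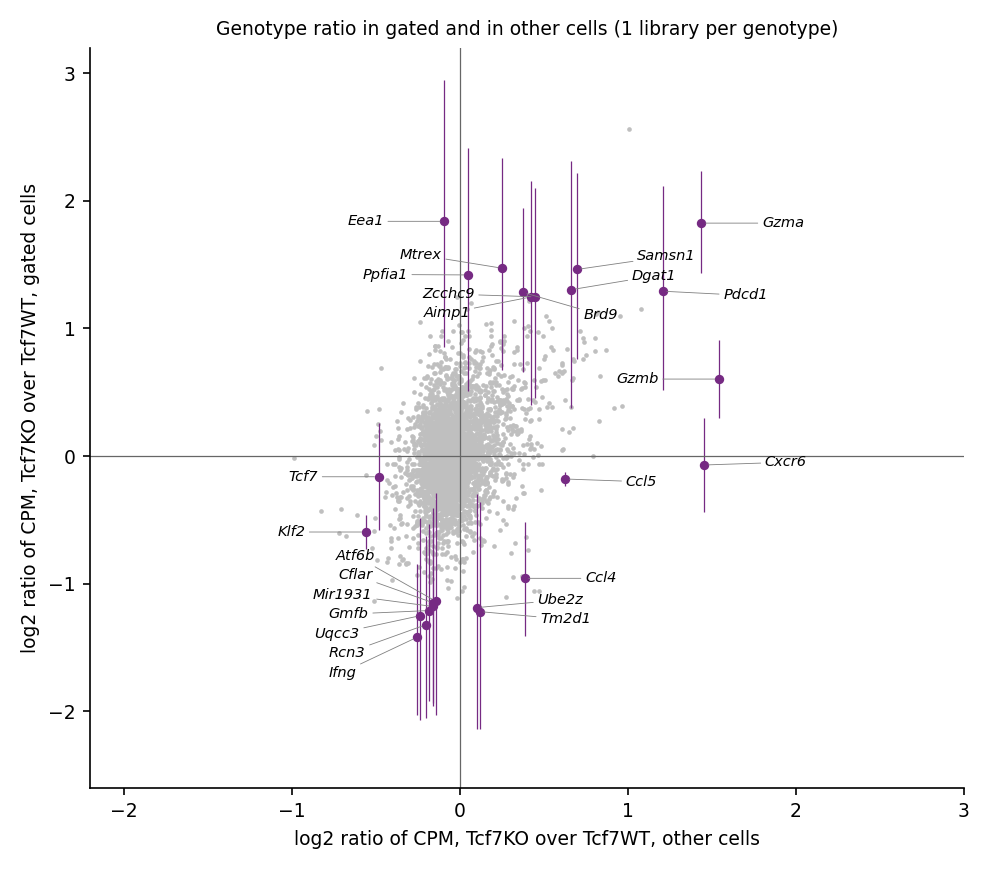
Log2 ratio of CPM of Tcf7KO over Tcf7WT in the other cells (horizontal) and in the gated cells (vertical), each grey point a gene measured in the gated cells, purple points the named genes with the exact 95% counting interval of the ratio in gated cells. Pdcd1 and Gzma lie above 0 on both axes, while Cxcr6 is at 1.46 in the other and -0.07 in the gated cells.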

How the data were processed

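Colon intraepithelial T cells were profiled as 4 libraries, 1 per sort and genotype. Per the labels' protocols, a 10x 3′ kit (v2) was used. The deposited matrices hold raw UMI counts per gene and cell, as the authors made them, with gene symbols and cell barcodes in deposited lists. Seurat 3.0.0, GRCm38 and mm10 appear in the submitters' processing notes with no role stated, and the aligner is not given in the sources used here. The members, gene lists and comparisons were chosen with earlier results of these data known.

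UMIs were summed over the gated, other and naive-like cells of a library and divided by their total (CPM), with Python 3.11.15, numpy 2.4.6, scipy 1.17.1 and pandas 2.3.3. CPM carries an exact Poisson, a share an exact Clopper-Pearson and a log2 ratio an exact conditional interval at 95%. No p-value was made: with 1 library per group, cells are not replicates. A count of 0 is given with its exact upper limit. At 464005 and 483194 summed UMIs in the gated cells, a gene at 50 CPM rests on few UMIs.

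Named genes are the 6 of the rule, Klf2, Tcf7, the 12 highest and 12 lowest ratios against other cells by the smaller of both libraries, the 8 and 8 against naive-like cells, the 10 and 10 between genotypes, and members of 23 lists. 1 gene that this rule names is not reported here. Receptor segments, mitochondrial, ribosomal and sex genes and unnamed models were left out of the ranking. No cell was removed. Scrublet (scanpy 1.11.5) marked 1 cell per library, so its calls were not used, and its scores served only in 1 alternative. Alternatives were 17 other settings of the rule, cell filters, thinning to 1624 UMIs, TMM (edgeR 4.0.16) and DESeq2 1.42.0 scaling (R 4.3.3) and count minimums. The interval and ratio code was tested on simulated data. Coordinates are from GENCODE M21.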

Additional observations from a re-analysis of the deposited data

Results flagged for a closer look

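Opposite directions in the libraries were flagged for 4 genes of the lists: each was higher in the gated than in the other cells in Tcf7WT and lower in Tcf7KO. These are not all the listed genes that changed direction. Tbx21 and Il12rb2 were among others that did so the same way, and Ctsw and Tgfbr2 went the opposite way. The log2 ratio of gated over other cells, Tcf7KO minus Tcf7WT, was -1.52 for Cxcr6 (1.04 in Tcf7WT and -0.48 in Tcf7KO). It was -1.34 for the chemokine gene Ccl4 (0.55 and -0.79), -0.81 for the chemokine gene Ccl5 (0.69 and -0.12) and -0.43 for Nkg7, a granule gene of killer cells (0.17 and -0.26). The gated level itself differed less between genotypes than the level of the other cells for Cxcr6, at 274 and 261 CPM in gated and 133 and 364 CPM in other cells. Ccl5 stood at 13159 and 11619 CPM in gated and 8155 and 12593 CPM in other cells. Under alternatives some of these turned: Ccl5 in Tcf7KO was 0.30 after thinning, 0.09 without cells with markers of other types and 0.14 with each cell weighing the same, Nkg7 in Tcf7KO was 0.04 after thinning, and Ccl4 in Tcf7WT was -0.03 with no S100a4 minimum. With 1 library per genotype the difference was not tested.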

How the results depend on the processing

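Over 17 alternatives, 129 named ratios gave 2126 values, of which 1914 lay within the counting interval of the reported ratio and 212 outside it. Among the ratios of at least 2-fold 5 values turned, and among those under 2-fold 6 outside the interval and 5 within it did. The cause was not tested. The ratios of at least 2-fold that turned were Mki67 and Sox4 in Tcf7WT gated over other cells after thinning (-0.56 and -0.55), Top2a in Tcf7KO with 500 to 3500 genes (-0.35), and, for Tcf7KO over Tcf7WT in gated cells, Gzma with a summed count of at least 3 (-1.01) and Hist1h2ae with a naive sum of 0 (0.79). The share of gated cells in Tcf7WT and Tcf7KO was 2.59% and 2.59% with a summed count of at least 1, 1.36% and 1.37% with at least 3, 4.14% and 4.18% with no S100a4 minimum, 1.24% and 1.30% with at least 2 S100a4 UMIs, and 1.10% and 0.812% after thinning. Thinning left 79 and 36 gated cells in Tcf7WT and Tcf7KO. Genes higher and lower than in the other cells then numbered 243 and 374 in Tcf7WT and 556 and 557 in Tcf7KO. Without thinning and with no CPM minimum they numbered 451 and 1463 and 504 and 1118. Between genotypes, the higher genes numbered 20 with a summed count of at least 3, 15 without cells with markers of other types and 49 with DESeq2 scaling. Higher and lower genes numbered 11 and 6 with no S100a4 minimum, 2 and 12 after thinning, and 9 and 4 with 100 UMIs as the minimum. The filter without Scrublet doublets was not run, since 1 cell per library was marked (0.0132% and 0.0173%). Leaving out cells with mitosis UMIs or high Scrublet scores was chosen after seeing the data. No paired analysis was possible because each group is 1 library and no test was made. Depth limits genes under about 50 CPM in the gated cells, where few UMIs were counted.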
